A study of Rattus norvegicus with 12 samples.

Results

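The 32 genes described here encode core proteins of programmed cell death, among them the BCL-2 family and the caspases with their adaptors and inhibitors. The set also holds the genes of RIPK1, RIPK3 and MLKL of necroptosis and of the pore protein of pyroptosis. All 32 were picked by symbol from a list of cell death genes. Each had a row among the 30045 gene symbols of the count table and passed the low-count filter that left 17330 genes to test. Polyadenylated RNA was sequenced from theca-interstitial cells, which make androgens in the ovary, taken at postnatal day 30 from wild type female Sprague Dawley rats. The cells were cultured on fibronectin for 48 h with vehicle (control), with rat interleukin-1β (IL-1β, a cytokine of inflammation, dose not given in the sources used here) or with lipopolysaccharide (LPS, a bacterial cell wall component, 1 µg/ml). Each group held 4 libraries, and the labels do not say whether these came from separate animals or isolations, so p-values measure the spread between these libraries, which may be technical. The study asked how inflammatory stimuli shift gene expression, androgen production and proliferation in these cells.

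Sequencing depth was 20873934 to 32090924 counts in the control libraries, 23193408 to 26836323 in those with IL-1β and 25643226 to 28698783 in those with LPS. Libraries of a group differed by more than sampling noise, with a chi-square per degree of freedom of 1.82 to 3.46 between control libraries, 2.56 to 3.56 between IL-1β libraries and 2.88 to 5.21 between LPS libraries, where the highest value was that of replicates 1 and 3. Theca-interstitial markers were detected in every group, and 11 of 12 had a row that was tested, among them Star, Cyp11a1 and Cyp17a1. The sum of the 11 was 444 to 482 CPM (counts scaled to a common library total) in control, 967 to 1028 CPM with IL-1β and 873 to 929 CPM with LPS. Of them 9 rose and 1 fell with IL-1β, and 7 rose and 1 fell with LPS, where Tcf21 was the one that fell. Cyp17a1 and Insl3 were near the floor in control, with 12 to 18 and 4 to 8 counts per library. The cultures were mixed: the summed level of 15 macrophage markers was 134 to 143 CPM in control, 74.5 to 80.6 CPM with IL-1β and 65.4 to 72.9 CPM with LPS, and 11 and 12 of the 15, respectively, fell while 1 rose. The sum of 12 endothelial markers was 196 to 232 CPM in control, 418 to 476 CPM with IL-1β and 291 to 392 CPM with LPS. The sum of 8 smooth muscle and pericyte markers, mostly Tagln and Acta2, was 4693 to 5095 CPM in control, 1489 to 1692 CPM with IL-1β and 1800 to 2048 CPM with LPS. Of the 8, 6 fell and 1 rose with IL-1β, and 7 fell and 0 rose with LPS. The 6 granulosa markers summed to 337 to 404 CPM in control, of which Inha held 256 to 301 CPM. Their sum was 581 to 752 CPM with IL-1β and 388 to 532 CPM with LPS. Of the 6, 4 rose and 1 fell with IL-1β, and 2 rose and 1 fell with LPS. None of 6 neutrophil markers and 1 of 5 T cell markers passed the low-count filter. In such bulk samples fewer cells of a type and less RNA per cell cannot be told apart, and the part of these cell types in the results below was not tested.

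As background, apoptosis starts on either of 2 routes. In the mitochondrial route, BH3-only proteins counter the pro-survival BCL-2 proteins or directly activate BAX and BAK, which open the outer mitochondrial membrane and release cytochrome c, and cytochrome c with APAF1 forms the apoptosome that activates caspase-9. In the other, a death receptor such as FAS recruits FADD and caspase-8. Where caspase-8 is held inactive, RIPK1 and RIPK3 can activate MLKL, which breaks the plasma membrane (necroptosis), and inflammatory caspases cut gasdermin D into a pore (pyroptosis). In the ovary, cell death removes most follicles before ovulation.

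Cell death genes moved in both directions with both stimuli, by small amounts. With IL-1β 10 of the 32 rose and 11 fell, which is 65.6% of them, beside 47.7% of all genes called at an adjusted p under 0.05 by edgeR's quasi-likelihood test (24.7% higher and 23.0% lower). With LPS 12 rose and 5 fell, or 53.1%, beside 42.5% of all genes (22.5% higher and 20.0% lower). Scaled by library size alone, the split was 13 higher and 7 lower with IL-1β and 15 higher and 3 lower with LPS. The calls over all genes tilted the same way under that scaling, to 5558 higher and 3118 lower with IL-1β and 5011 higher and 2896 lower with LPS, from 4273 and 3988 and from 3898 and 3460. The median size of the log2 fold change over the 32 genes was 0.16 with IL-1β, against 0.17 over all genes tested, and 0.18 with LPS, against 0.15. A change of at least 0.5 on the log2 scale was called in 3 members with IL-1β and in 4 with LPS, while 15.8% and 13.0% of all genes reached that size. Control and treated libraries did not overlap for 20 members with IL-1β and 16 with LPS, beside 44.2% and 38.4% of all genes. The median of the members' mean counts was 644, against 496 over all genes tested, and the part of this difference in the shares called was not tested.

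**Figure D1:**
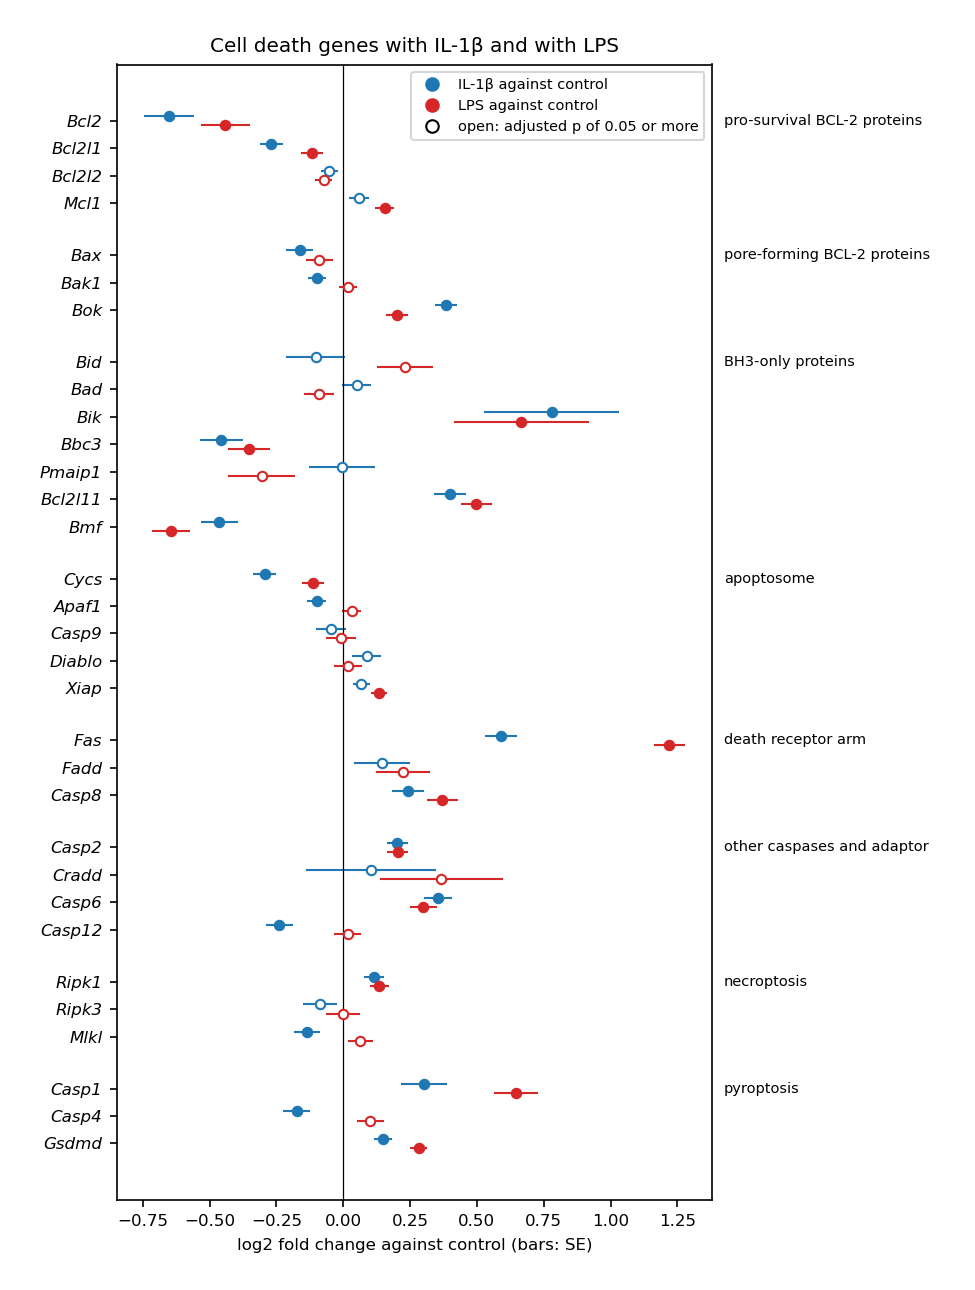
Log2 fold change against control (x axis) of the 32 cell death genes, grouped by role, with IL-1β (blue) and LPS (red); bars are the SE, with 4 libraries per group, and open points did not pass an adjusted p of 0.05. Fas stands furthest to the right with LPS at 1.22, and Bcl2 with IL-1β (-0.65) and Bmf with LPS (-0.64) stand furthest to the left.

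Both treatments were set against the same 4 control libraries, so their values are not independent of each other. Side by side, 10 members rose with each stimulus (Bok, Bik, Bcl2l11, Fas, Casp8, Casp2, Casp6, Ripk1, Casp1 and Gsdmd) and 5 fell with each (Bcl2, Bcl2l1, Bbc3, Bmf and Cycs). Another 6 passed the test as lower with IL-1β and did not pass with LPS (Bax, Bak1, Apaf1, Casp12, Mlkl and Casp4), and 2 passed as higher with LPS and not with IL-1β (Mcl1 and Xiap). The remaining 9 (Bcl2l2, Bid, Bad, Pmaip1, Casp9, Diablo, Fadd, Cradd and Ripk3) passed in neither comparison. Over all 17330 genes tested, 2902 rose with each stimulus, 2768 fell with each and 7447 passed in neither. Called with IL-1β only, 1343 rose and 1182 fell, and called with LPS only, 958 rose and 664 fell. No member was called in opposite directions, which was rare over all genes too. There 38 were lower with IL-1β and higher with LPS, and 28 were the reverse.

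The death receptor arm held the largest rise with LPS among the 32 genes. Fas, the receptor that on binding FAS ligand assembles the caspase-8 complex, stood at 14.0, 14.5, 13.3 and 14.7 CPM in the 4 control libraries, at 19.2, 21.2, 21.4 and 23.5 CPM with IL-1β and at 32.0, 32.0, 35.1 and 32.9 CPM with LPS. The 3 groups did not overlap, with control lowest and LPS highest. Fas rose 1.51-fold with IL-1β (log2 fold change 0.59 ± 0.06, where ± after a log2 fold change is the SE with 4 libraries per group; adjusted p = 3.95e-09) and 2.33-fold with LPS (1.22 ± 0.06, adjusted p = 3.13e-16). Over 21 alternatives its log2 fold change lay between 0.54 and 0.64 with IL-1β and between 1.18 and 1.26 with LPS.

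The 250 bases before the start of Fas are shown because Fas moved most with LPS and because they hold a match to the NF-kB motif and to the AP-1 motif (TGANTCA), which stand for factors that inflammatory stimuli activate. The same stretch is shown for Bmf, the member that fell most with LPS, which holds neither. As the pair was picked by its change with LPS, it cannot show whether the motifs go with direction. Casp1, Bcl2l11, Casp2, Casp6 and Ripk1 rose with LPS and also held neither motif in the stretch searched. The Fas and Bmf stretches are read 5′ to 3′ on the strand of the gene, and the capitals mark the matches. They are from RefSeq on build GRCr8, Fas at chr1:241211905-241212154 on the plus strand and Bmf at chr3:125974065-125974314 on the minus strand.
Fas: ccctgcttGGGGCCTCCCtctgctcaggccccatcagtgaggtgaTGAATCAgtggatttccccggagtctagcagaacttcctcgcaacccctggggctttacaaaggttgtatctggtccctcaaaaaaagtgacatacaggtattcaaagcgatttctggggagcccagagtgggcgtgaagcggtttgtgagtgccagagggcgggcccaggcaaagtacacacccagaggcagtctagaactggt
Bmf: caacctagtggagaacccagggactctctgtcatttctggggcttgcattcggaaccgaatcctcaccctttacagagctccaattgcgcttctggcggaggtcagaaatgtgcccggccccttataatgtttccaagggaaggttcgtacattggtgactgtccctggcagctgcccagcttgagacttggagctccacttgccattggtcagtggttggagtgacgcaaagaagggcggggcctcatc

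In Fas the NF-kB match GGGGCCTCCC lies 242 to 233 bases before the start and the AP-1 match TGAATCA 205 to 199 bases before it, and the matches do not overlap. A promoter in the table was found for 24 of the 32 members. Of these 24, the NF-kB motif stood in Fas, Mcl1 and Pmaip1, the AP-1 motif in Fas, Diablo and Ripk3, and the GAS motif of STAT factors (TTCNNNGAA) in Bad, Bcl2l1 and Casp12. Among all 33469 promoters searched in the same way on both strands, 6.3% held the NF-kB motif, 6.3% the AP-1 motif and 7.7% the GAS motif. These are shares of promoters, whereas the 24 members were counted by gene and had 27 promoters, with more than 1 for Bcl2l1. Members with a match went different ways with LPS, from 1.22 for Fas through 0.15 for Mcl1 to -0.31 for Pmaip1, which was not past the threshold. A match is a run of letters and not a measured binding site.

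Casp8, the initiator caspase that FAS recruits, rose as well. Its control libraries held 16.4, 15.2, 18.1 and 16.1 CPM, the IL-1β libraries 19.0, 19.3, 20.5 and 18.5 CPM and the LPS libraries 20.5, 20.3, 22.9 and 21.1 CPM. Every treated library was above every control library, with a rise of 0.24 ± 0.06 on the log2 scale with IL-1β (adjusted p = 0.00157) and of 0.37 ± 0.06 with LPS (adjusted p = 8.55e-06). Fadd, the adaptor between FAS and caspase-8, was not past the threshold (0.15 ± 0.10 with IL-1β and 0.22 ± 0.10 with LPS, adjusted p = 0.266 and 0.0791), and with library size alone its LPS value of 0.26 passed (adjusted p = 0.0388). The gene of Casp8 overlaps that of Cflar, its catalytically inactive relative, in the RefSeq annotation, and how reads in such overlaps were counted is not given in the sources used here.

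**Figure D2:**
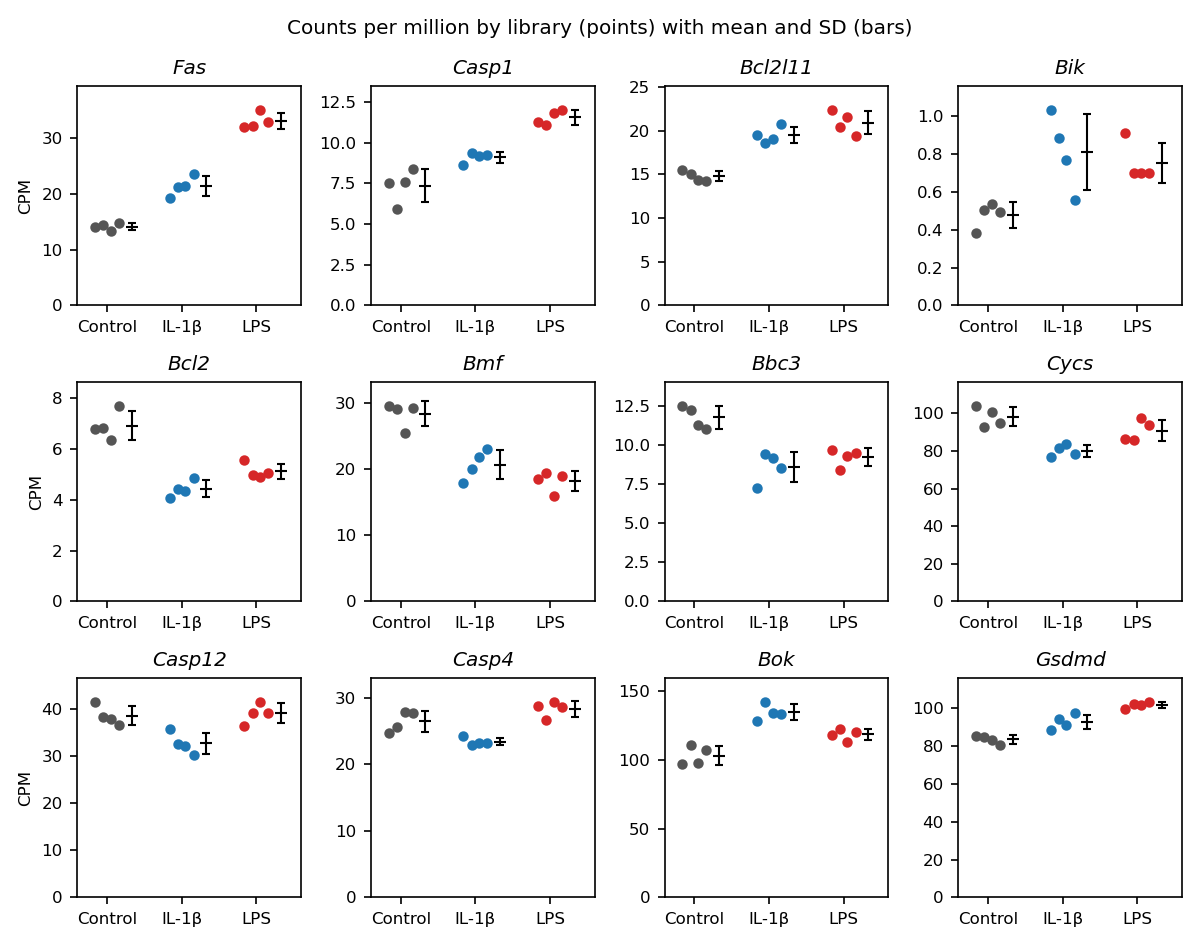
CPM (y axis, from 0) of 12 cell death genes in each control, IL-1β and LPS library (points, 4 per group, replicates 1 to 4 from left to right), with the group mean and SD beside them. Fas, Casp1 and Gsdmd step up from control to IL-1β to LPS, whereas Casp12 and Casp4 dip with IL-1β and stand near the control level with LPS.

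Among pro-survival genes, Bcl2, the founding member of the family, fell with both stimuli. It stood at 6.78, 6.83, 6.34 and 7.70 CPM in control, at 4.07, 4.44, 4.35 and 4.87 CPM with IL-1β and at 5.56, 4.97, 4.91 and 5.04 CPM with LPS. All treated libraries lay below all control libraries, and Bcl2 was 1.57-fold lower with IL-1β (-0.65 ± 0.09, adjusted p = 1.47e-06) and 1.36-fold lower with LPS (-0.44 ± 0.09, adjusted p = 2.27e-04). Bcl2l1, which encodes BCL-XL, went from 46.3 ± 1.49 CPM (SD, n = 4) to 38.4 ± 1.64 with IL-1β (-0.27 ± 0.04, adjusted p = 6.25e-06) and to 42.7 ± 1.88 with LPS (-0.12 ± 0.04, adjusted p = 0.0261). The LPS call for Bcl2l1 was lost without Control replicate 1 (-0.11), Control replicate 3 (-0.10), LPS replicate 1 (-0.10), LPS replicate 2 (-0.11) or LPS replicate 4 (-0.11), and with library size alone (-0.08).

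The other pro-survival genes changed by small amounts, and Mcl1 went up with LPS where Bcl2 and Bcl2l1 went down. Mcl1, whose protein is short-lived, had 128 ± 4.34 CPM in control, 133 ± 3.42 with IL-1β and 142 ± 9.14 with LPS, and rose with LPS (0.15 ± 0.04, adjusted p = 0.00129) but did not pass with IL-1β (0.06 ± 0.04, adjusted p = 0.205). LPS replicates 3 and 4 (155 and 143 CPM) held the highest Mcl1 levels of all libraries, and with both left out the LPS value was 0.08 (adjusted p = 0.0625). With library size alone the IL-1β value for Mcl1 was 0.11 and passed (adjusted p = 0.0142). Bcl2l2, encoding BCL-W, did not pass with IL-1β (-0.05 ± 0.03) or LPS (-0.07 ± 0.03, adjusted p = 0.0562), although it passed with LPS without LPS replicate 2 (-0.09), with DESeq2 size factors (-0.08), with the stricter filter (-0.08) and in limma-voom (-0.07).

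The 3 pore-forming genes did not move together. Bax and Bak1, the executioners of the mitochondrial route, fell slightly with IL-1β, Bax from 34.3 ± 1.43 to 30.8 ± 2.20 CPM (-0.16 ± 0.05, adjusted p = 0.00934) and Bak1 from 83.7 ± 0.321 to 78.2 ± 2.70 CPM (-0.10 ± 0.03, adjusted p = 0.0198). Both calls were lost with library size alone (-0.11 and -0.05), and that of Bak1 also without IL-1β replicate 2 (-0.08). With LPS neither passed (-0.09 ± 0.05 and 0.02 ± 0.03). Bok, a relative of BAX and BAK, rose: control libraries held 97.0, 111, 97.5 and 108 CPM, IL-1β libraries 129, 143, 135 and 134 CPM and LPS libraries 118, 123, 113 and 120 CPM. No treated library overlapped a control library, and the rise was 1.31-fold with IL-1β (0.39 ± 0.04, adjusted p = 5.68e-08) and 1.15-fold with LPS (0.20 ± 0.04, adjusted p = 3.82e-04).

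BH3-only genes, the sensors that start the mitochondrial route, split into 2 higher, 2 lower and 3 not past the threshold with each stimulus. Bcl2l11, which encodes BIM, rose from 15.5, 15.0, 14.4 and 14.2 CPM in control to 19.5, 18.5, 19.1 and 20.8 CPM with IL-1β and to 22.4, 20.4, 21.5 and 19.3 CPM with LPS. Control libraries were all lower than treated ones, and the rise was 1.32-fold with IL-1β (0.40 ± 0.06, adjusted p = 2.69e-06) and 1.41-fold with LPS (0.50 ± 0.06, or 0.4984 before rounding, adjusted p = 5.69e-08). Bmf, whose product binds pro-survival proteins when cells detach, fell from 29.6, 29.0, 25.5 and 29.3 CPM to 17.9, 20.0, 21.8 and 22.9 CPM with IL-1β and to 18.5, 19.4, 15.9 and 18.9 CPM with LPS. Again the control libraries did not overlap the treated ones, at 1.38-fold lower with IL-1β (-0.46 ± 0.07, adjusted p = 8.60e-06) and 1.56-fold lower with LPS (-0.64 ± 0.07, adjusted p = 8.92e-08).

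Bbc3, which encodes PUMA, a BH3-only protein that binds all pro-survival relatives, also fell. Its control libraries held 12.6, 12.2, 11.3 and 11.1 CPM, against 7.29, 9.46, 9.17 and 8.54 CPM with IL-1β and 9.72, 8.43, 9.35 and 9.51 CPM with LPS. No treated library reached the lowest control library, and the log2 fold change was -0.46 ± 0.08 with IL-1β (adjusted p = 2.95e-05) and -0.35 ± 0.08 with LPS (adjusted p = 5.71e-04). Pmaip1, which encodes NOXA, a BH3-only protein that counters MCL1, did not pass with IL-1β (-0.01 ± 0.12) or with LPS (-0.31 ± 0.13, adjusted p = 0.0506). With LPS it passed without Control replicate 2 (-0.36), IL-1β replicate 4 (-0.31) or LPS replicate 3 (-0.36), with both LPS replicates 3 and 4 left out (-0.41), with DESeq2 size factors (-0.31), the stricter filter (-0.31) or a fit on the 8 libraries compared (-0.31), and with a replicate block (-0.31, adjusted p = 0.0316).

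Bik, a BH3-only gene of the endoplasmic reticulum, was barely detected, with 11 to 15 counts in each control library, 13 to 27 with IL-1β and 18 to 25 with LPS. Its level was 0.380, 0.507, 0.536 and 0.494 CPM in control, 1.04, 0.887, 0.767 and 0.555 CPM with IL-1β and 0.914, 0.699, 0.701 and 0.699 CPM with LPS, so the lowest IL-1β library lay just above the highest control library. Bik rose with IL-1β (0.78 ± 0.25, adjusted p = 0.0126) and with LPS (0.67 ± 0.25, adjusted p = 0.0351). The IL-1β call was lost without Control replicate 1 (0.67) or IL-1β replicate 1 (0.64). With LPS it was lost without Control replicates 1 (0.56), 2 (0.70) or 4 (0.69) or LPS replicate 1 (0.56), without LPS replicates 3 and 4 together (0.76), with no low-count filter (0.67) and in DESeq2 (0.66). Bik did not pass the stricter filter.

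Bid and Bad passed against control with neither stimulus. Bid, which caspase-8 cuts to link the receptor route with mitochondria, stood at 7.93 ± 0.993 CPM in control, 7.33 ± 0.668 with IL-1β (-0.10 ± 0.11) and 9.27 ± 1.55 with LPS (0.23 ± 0.11, adjusted p = 0.0819). LPS replicate 3, at 11.5 CPM, held the highest Bid level. Bid passed with LPS without Control replicate 3 (0.30) or LPS replicate 2 (0.30), with library size alone (0.27), with no low-count filter (0.23) and with a replicate block (0.22, adjusted p = 0.0415). Bad, whose protein is held inactive by phosphorylation, had 21.6 ± 0.904, 22.4 ± 0.471 and 20.3 ± 1.65 CPM in control, IL-1β and LPS cultures, and its LPS value passed when LPS replicate 1 was left out (-0.15).

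In the apoptosome group, Cycs, the gene of cytochrome c, fell with both stimuli and had the largest change of the group with IL-1β. It stood at 104, 93.0, 101 and 95.1 CPM in control, at 76.9, 81.7, 83.5 and 78.4 CPM with IL-1β and at 86.5, 85.7, 97.4 and 93.9 CPM with LPS. The IL-1β libraries lay below all control libraries (-0.29 ± 0.04, adjusted p = 4.78e-06), whereas those with LPS overlapped them (-0.11 ± 0.04, adjusted p = 0.0351). For Cycs the LPS call was lost without Control replicate 1 (-0.08), Control replicate 3 (-0.10), LPS replicate 1 (-0.09) or LPS replicate 2 (-0.09), and with library size alone (-0.07).

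Apaf1, the scaffold of the apoptosome, fell slightly with IL-1β, from 65.4 ± 1.10 to 61.1 ± 1.58 CPM (-0.10 ± 0.04, adjusted p = 0.0217), and did not pass with LPS (0.03 ± 0.03). Its IL-1β call was lost without Control replicate 3 (-0.09), without IL-1β replicates 1 (-0.09), 2 (-0.09) or 3 (-0.10), and with library size alone (-0.05). Xiap, which blocks caspases directly, rose with LPS from 97.9 ± 3.86 to 108 ± 1.73 CPM (0.13 ± 0.03, adjusted p = 7.48e-04). With IL-1β the value for Xiap was 0.07 ± 0.03 (adjusted p = 0.0732), and it passed without Control replicate 1 (0.09) and with library size alone (0.12). Casp9, the initiator caspase of this route, stood at 18.6 ± 0.771, 18.0 ± 0.792 and 18.5 ± 1.05 CPM in control, IL-1β and LPS cultures and did not pass in either comparison (-0.05 ± 0.06 and -0.01 ± 0.06). Diablo, encoding the XIAP antagonist SMAC, was at 0.09 ± 0.05 with IL-1β and 0.02 ± 0.05 with LPS, and passed with IL-1β with library size alone (0.14).

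Among the other caspases Casp2 and Casp6 rose. Casp2, an initiator caspase linked to DNA damage and extra centrosomes, held 45.8, 47.5, 47.3 and 47.4 CPM in control, 55.4, 55.2, 49.8 and 55.8 CPM with IL-1β and 53.3, 56.5, 52.6 and 54.0 CPM with LPS. Treated and control libraries did not overlap, with a rise of 0.20 ± 0.04 with IL-1β (adjusted p = 1.20e-04) and of 0.20 ± 0.04 with LPS (adjusted p = 1.12e-04). Cradd, the adaptor that joins caspase-2 to PIDD1, had 15 to 26 counts per control library and passed in neither comparison (0.11 ± 0.24 and 0.37 ± 0.23). Casp6, an executioner caspase, rose from 21.9 ± 0.641 to 28.0 ± 0.730 CPM with IL-1β (0.35 ± 0.05, adjusted p = 2.08e-06) and to 27.0 ± 1.93 CPM with LPS (0.30 ± 0.05, adjusted p = 2.67e-05). An uncharacterised locus had almost the same values as Casp6 over the 12 libraries (r = 0.9966), so the level of Casp6 is uncertain.

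Casp12, a caspase of the inflammatory caspase cluster that is linked to the endoplasmic reticulum in rodents, fell with IL-1β and not with LPS. It had 41.5, 38.2, 37.9 and 36.6 CPM in control, 35.8, 32.6, 32.2 and 30.2 CPM with IL-1β and 36.4, 39.2, 41.6 and 39.2 CPM with LPS. The IL-1β libraries lay below all others, at -0.24 ± 0.05 against control (adjusted p = 3.90e-04), and LPS overlapped control (0.02 ± 0.05, adjusted p = 0.812).

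The necroptosis genes moved little. Ripk1, the kinase that stands between survival and death below TNF receptors, rose from 62.1 ± 2.49 to 67.2 ± 2.57 CPM with IL-1β (0.12 ± 0.04, adjusted p = 0.0104) and to 68.1 ± 1.50 CPM with LPS (0.14 ± 0.04, adjusted p = 0.00335), and its IL-1β call was lost without Control replicate 2 (0.09) or IL-1β replicate 1 (0.09). Ripk3, the kinase that activates MLKL, passed in neither comparison (-0.09 ± 0.06 with IL-1β and 0.00 ± 0.06 with LPS). Mlkl, the executioner of necroptosis, fell with IL-1β from 39.7 ± 2.08 to 36.3 ± 0.292 CPM (-0.13 ± 0.05, adjusted p = 0.0224). It did not pass without Control replicate 1 (-0.13) or Control replicate 4 (-0.11), nor with library size alone (-0.08). With LPS it stood at 41.6 ± 2.96 CPM (0.06 ± 0.05, adjusted p = 0.295).

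In the pyroptosis group Casp1 and Gsdmd rose and Casp4 fell with IL-1β, and Casp1 and Gsdmd rose with LPS. Casp1, the caspase of inflammasomes, which matures IL-1β and cuts gasdermin D, held 7.55, 5.93, 7.56 and 8.36 CPM in control, 8.59, 9.38, 9.17 and 9.23 CPM with IL-1β and 11.3, 11.1, 11.8 and 12.03 CPM with LPS. The 3 groups did not overlap, and Casp1 rose 1.23-fold with IL-1β (0.30 ± 0.09, adjusted p = 0.00498) and 1.56-fold with LPS (0.65 ± 0.08, adjusted p = 2.31e-07). Gsdmd, the gene of the pore protein itself, held 85.6, 85.1, 83.5 and 80.5 CPM in control, 88.4, 94.2, 91.1 and 97.4 CPM with IL-1β and 99.5, 102, 102 and 104 CPM with LPS. It rose in the same order without overlap, by 0.15 ± 0.03 with IL-1β (adjusted p = 4.74e-04) and by 0.28 ± 0.03 with LPS (adjusted p = 3.97e-08).

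Casp4, whose rodent product senses LPS inside the cell, held 24.7, 25.6, 27.8 and 27.7 CPM in control, 24.2, 23.0, 23.2 and 23.2 CPM with IL-1β and 28.8, 26.6, 29.4 and 28.6 CPM with LPS. It fell with IL-1β (-0.17 ± 0.05, adjusted p = 0.00625) and did not pass with LPS (0.10 ± 0.05, adjusted p = 0.102), but passed with LPS without LPS replicate 2 (0.13) and with library size alone (0.14). Macrophages express pyroptosis genes, and the sum of the 15 macrophage markers was 134 to 143 CPM in control, 74.5 to 80.6 CPM with IL-1β and 65.4 to 72.9 CPM with LPS. Their part in the values of Casp1, Casp4 and Gsdmd was not tested.

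LPS was then compared directly with IL-1β, which tests the difference between the stimuli. Of the 32 genes 11 were higher with LPS and 1 was lower, or 37.5%, beside 21.9% of all genes (11.3% higher and 10.6% lower), and the median log2 difference was 0.10 over the members and 0.00 over all genes tested. Groups did not overlap in 12 members, beside 21.6% of all genes, and a difference of at least 0.5 was called in 1 member, beside 3.80% of all genes. With LPS replicates 3 and 4 left out, 6 members were higher and 1 lower, and the calls over all genes went from 1960 higher and 1831 lower to 960 and 1019.

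**Figure D3:**
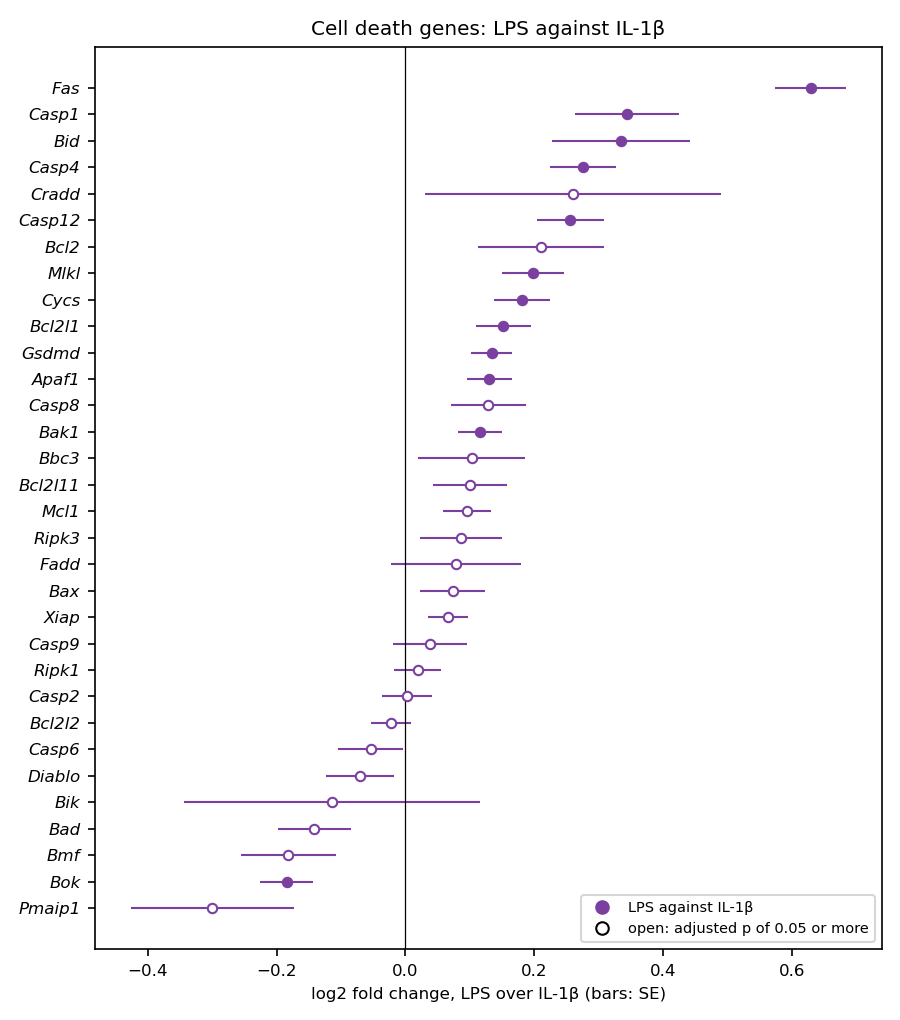
Log2 fold change of LPS over IL-1β (x axis) for the 32 cell death genes in order of size, with the SE (bars, 4 libraries per group) and open points for an adjusted p of 0.05 or more. Fas stands apart at 0.63, and Bok is the sole gene called lower with LPS, at -0.18.

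Fas differed most, 1.55-fold higher with LPS than with IL-1β (0.63 ± 0.06, adjusted p = 2.18e-09). All 3 pyroptosis genes were higher with LPS, Casp1 by 0.34 ± 0.08 (adjusted p = 0.00256), Casp4 by 0.28 ± 0.05 (adjusted p = 2.13e-04) and Gsdmd by 0.13 ± 0.03 (adjusted p = 0.00346). Casp12 (0.26 ± 0.05, adjusted p = 6.35e-04) and Mlkl (0.20 ± 0.05, adjusted p = 0.00322) were also higher, and Bok was lower (-0.18 ± 0.04, adjusted p = 0.00221). These 7 differences passed in all 21 alternatives. Of the 6 genes that fell with IL-1β and did not pass with LPS, 5 were higher with LPS than with IL-1β (Bak1, Apaf1, Casp12, Mlkl and Casp4). The difference for Bax was 0.07 ± 0.05 (adjusted p = 0.334). As the 6 were picked by their values in these same libraries, that direction was favoured in advance and is no separate evidence.

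The other 5 differences in favour of LPS were lost when some libraries were left out. Bid (0.33 ± 0.11, adjusted p = 0.0276) did not pass without IL-1β replicates 1 (0.29), 3 (0.35) or 4 (0.31) or LPS replicates 3 (0.22) or 4 (0.34). Bcl2l1 (0.15 ± 0.04, adjusted p = 0.0109) did not pass without IL-1β replicate 1 (0.13) or LPS replicate 3 (0.12), and Bak1 (0.12 ± 0.03, adjusted p = 0.0140) did not without IL-1β replicate 2 (0.09) or LPS replicate 3 (0.10). Cycs (0.18 ± 0.04, adjusted p = 0.00394) and Apaf1 (0.13 ± 0.04, adjusted p = 0.00791) kept their calls without any one library and lost them without LPS replicates 3 and 4 together (0.10 and 0.08), as did Bid (0.17), Bcl2l1 (0.12) and Bak1 (0.08). Mcl1 (0.10 ± 0.04, adjusted p = 0.0653) passed without LPS replicates 1 (0.12) or 2 (0.12), Bmf (-0.18 ± 0.07, adjusted p = 0.0853) without IL-1β replicate 1 (-0.25) and Bad (-0.14 ± 0.06, adjusted p = 0.0731) without LPS replicate 1 (-0.20). Mcl1 and Bmf passed also with a replicate block (0.10 and -0.19) and with no low-count filter (0.10 and -0.18).

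Genes of the same pathways outside the set were read from 3 lists. Of 21 tested genes of the apoptosis machinery 6 rose and 7 fell with IL-1β and 5 rose and 5 fell with LPS. That was 61.9% and 47.6% of them, beside 47.7% and 42.5% of all genes, with a median log2 fold change of 0.00 and 0.06, against 0.01 and 0.01 over all genes.

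Birc3, which encodes the ubiquitin ligase cIAP2, rose most in that list, from 17.1 ± 0.745 CPM to 30.0 ± 0.610 with IL-1β (0.81 ± 0.05) and 45.0 ± 1.62 with LPS (1.39 ± 0.05). Parp1, a sensor of DNA breaks that caspases cut (0.22 ± 0.03 and 0.25 ± 0.03), and Bnip3l, a mitophagy receptor (0.35 ± 0.03 and 0.18 ± 0.03), rose by less. Sept4, a septin gene with a splice form that binds XIAP, fell most, from 37.6 ± 1.97 CPM to 15.0 ± 1.07 with IL-1β (-1.33 ± 0.06) and 13.2 ± 1.20 with LPS (-1.50 ± 0.06). The BH3-only gene Hrk fell too (-1.29 ± 0.28 and -0.92 ± 0.26), from 17 to 31 counts per control library to 7 to 13 with IL-1β and 9 to 15 with LPS.

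**Figure D4:**
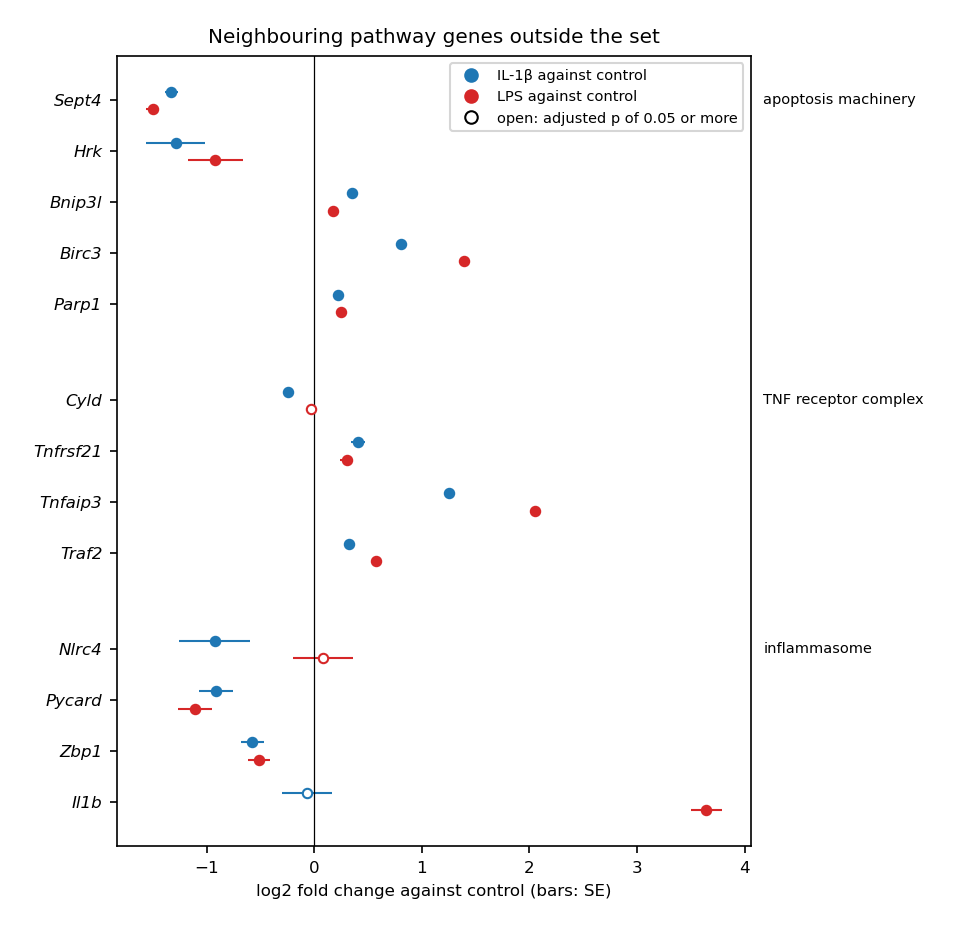
Log2 fold change against control (x axis) of 13 pathway genes outside the set of 32, with IL-1β (blue) and LPS (red), grouped by list; bars are the SE with 4 libraries per group and open points did not pass an adjusted p of 0.05. Il1b at 3.65 and Tnfaip3 at 2.05 with LPS lie furthest to the right, and Sept4 at -1.50 lies furthest to the left.

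In the list of TNF receptor and death receptor complex genes, 5 of 14 rose and 1 fell with IL-1β, and 4 rose and 0 fell with LPS. The shares called, 42.9% and 28.6%, were below the 47.7% and 42.5% of all genes, and the medians were 0.07 and 0.03. Tnfaip3, encoding the ubiquitin-editing enzyme A20 that restrains RIPK1 signalling, rose most (1.25 ± 0.04 and 2.05 ± 0.04). The adaptor Traf2 (0.32 ± 0.04 and 0.57 ± 0.04) and the death receptor Tnfrsf21 (0.40 ± 0.06 and 0.30 ± 0.06) rose by less. The deubiquitinase gene Cyld fell with IL-1β (-0.24 ± 0.04) and did not pass with LPS (-0.03 ± 0.04). Faslg, the ligand of FAS, did not pass the low-count filter.

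Inflammasome genes outside the set fell or did not pass with IL-1β, 0 higher and 5 lower of 13, and with LPS 1 rose and 2 fell. The shares called, 38.5% and 23.1%, were below those of all genes, and the medians were -0.10 and -0.03. Pycard, the adaptor ASC that joins sensors to caspase-1, fell from 5.00 ± 0.879 CPM to 2.68 ± 0.423 with IL-1β (-0.92 ± 0.16) and 2.33 ± 0.593 with LPS (-1.11 ± 0.16). Zbp1, a nucleic acid sensor above RIPK3, fell as well (-0.58 ± 0.11 and -0.51 ± 0.10). Of 15 macrophage markers 11 fell and 1 rose with IL-1β, and 12 fell and 1 rose with LPS. Of 8 smooth muscle and pericyte markers 6 fell and 1 rose with IL-1β, and 7 fell and 0 rose with LPS. The part of these cell types in the falls of Pycard and Zbp1 was not tested. Nlrc4 had 9 to 22 counts per control library and 7 to 10 with IL-1β (-0.93 ± 0.33, adjusted p = 0.0228). Its fall did not pass without Control replicates 1 (-0.84), 3 (-0.86) or 4 (-0.88) or IL-1β replicates 1 (-0.85) or 3 (-0.83). Il1b, the cytokine gene whose product caspase-1 matures, rose with LPS from 0.889 ± 0.199 to 11.4 ± 0.455 CPM (3.65 ± 0.14) and did not pass with IL-1β (-0.06 ± 0.23).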

How the data were processed

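The authors deposited 1 table of raw read counts, with a row for each gene symbol and a column for each library, not normalized. TopHat2 2.1.1, SAMtools, DESeq2 and rat build Rnor_6.0 are named per the submitters' processing notes. The counting program, annotation and use of strand are not given in the sources used here. RefSeq (GRCr8) shows 7 of the 32 members overlapping another protein-coding gene (Bcl2l11, Casp9, Diablo, Casp8, Cradd, Ripk1 and Ripk3), so their reads may be shared.

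In R 4.3.3, edgeR 4.0.16 tested the 17330 genes kept by filterByExpr, with TMM scaling (factors 0.976 to 1.02), 1 model of 3 groups over 12 libraries (glmQLFit, robust) and two-sided quasi-likelihood F-tests. The p-values were adjusted by Benjamini-Hochberg over all genes tested, and a call is an adjusted p under 0.05. The SE was taken as the size of the log2 fold change over the root of its F value, and CPM were made with TMM-scaled totals.

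Members and lists were chosen with earlier results of these data known. All members are named, with every library's value at least for those called with a log2 change of 0.5 or more. From each pathway list, the 2 highest and 2 lowest called genes per stimulus are named where reported, beside Faslg, added for its tie to Fas. Alternatives were other scalings and filters, DESeq2 1.42.0, limma-voom (limma 3.58.1), 8-library fits, a replicate block and libraries left out. The procedure was also run on simulated counts in which few genes changed, in equal numbers up and down. That run does not test the choice of scaling. Some genes outside the set and 1 further pathway list are not reported here.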

Additional observations from a re-analysis of the deposited data

Results flagged for a closer look

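In 8 of 96 groups of 4 libraries (32 genes in 3 groups), the highest or lowest library stood far from the other libraries of its group, measured as the gap to its nearest neighbour over the range of the group. Chance gives such a gap in about 1 of 20 groups. In control cultures, replicate 3 held 25.5 CPM of Bmf against 29.0 to 29.6 in the others, and replicate 1 held 45.8 CPM of Casp2 against 47.3 to 47.5. With IL-1β, replicate 4 was high for Pmaip1 (5.13 CPM, next 3.91) and Apaf1 (63.4 CPM, next 60.6), replicate 2 was low for Casp9 (16.8 CPM, next 18.3) and replicate 3 was low for Casp2 (49.8 CPM, next 55.2). With LPS, replicate 3 was high for Bcl2l1 (45.5 CPM, next 42.0) and replicate 1 for Bik (0.914 CPM, next 0.701).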

How the results depend on the processing

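Over 21 alternatives no called member changed direction. With IL-1β 15 of 21 called members passed in every alternative that tested them, with LPS 13 of 17, and between the stimuli 7 of 12. Members lower with IL-1β numbered 11, and 7 with scaling by library size alone; there 3 in place of 5 were lower with LPS, and over all genes 3118 in place of 3988 with IL-1β and 2896 in place of 3460 with LPS. That scaling shifted the median over all genes by 0.05 with IL-1β and by 0.04 with LPS. Leaving out single libraries gave 3 to 6 members lower with LPS (3 without Control replicate 1 or 3) and 1 to 2 members lower with LPS than with IL-1β, where the number was also 2 with no low-count filter and with a replicate block. Without LPS replicates 3 and 4, an alternative added after seeing the data, 6 members in place of 11 were higher with LPS than with IL-1β, and over all genes 960 were higher and 1019 lower. Same-numbered replicates resembled each other weakly at most. The correlation of their deviations from the group means was -0.01 to 0.16, and over 0.1 in 2 of 12 pairs. As 7 of 12 correlated best with their own number, a weak pairing may be present, and the main test ignores it. The replicate block gave 10 higher and 11 lower with IL-1β and 13 and 6 with LPS. The cause of these differences was not tested. Depth limits Bik and Cradd, with at most 36 counts per library.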
